A study of Mus musculus with 6 samples.

Results

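The genes described here are 41 genes whose products build and run the mitotic spindle, the kinetochore and the condensed chromosome. They were taken from a written list of gene symbols, and a probe set was assigned to a member where the platform annotation gave it exactly 1 gene symbol and that symbol was on the list. All 41 were on the array, with 99 probe sets in all, and all 41 had a tested probe set, out of 12853 genes tested. The RNA came from whole mouse embryos at embryonic day 8.5, with 1 embryo on each Affymetrix Mouse Genome 430 2.0 array. There were 3 wild-type embryos and 3 littermates heterozygous for Tcof1 (Tcof1+/-), and no other allele or treatment is named for either genotype. The labels state neither strain, sex, somite stage nor how the Tcof1 allele was made. Values are Affymetrix signals in arbitrary units on a linear scale, and differences are log2 values of heterozygotes minus wild types.

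Cells entering mitosis condense their chromosomes with condensin and topoisomerase II, assemble a kinetochore on each centromere and attach it to spindle microtubules. Aurora and Polo kinases drive these steps, the spindle checkpoint holds the cell until attachment is complete, and the anaphase-promoting complex then releases the sister chromatids so that motors and cytokinesis proteins can divide the cell. Transcripts of most of these genes peak in G2 and M, under a shared control by the B-Myb, FOXM1 and DREAM complexes, and the p53 target Cdkn1a (p21) is known to lower them in many cell types. Tcof1 encodes treacle, a nucleolar protein of ribosomal RNA synthesis, and loss of 1 copy causes Treacher Collins syndrome, a craniofacial disorder in which progenitors of the neural tube and neural crest die.

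The mitotic genes were close to equal in the 2 genotypes. Of the 41, 16 were higher and 25 lower in the heterozygotes, and the differences ran from -0.26 to 0.24 with a median of -0.02. In 24 of 41 (58.5%) the difference was under 0.1 in size and in all 41 it was under 0.3, against 42.8% and 82.2% of the 12853 tested genes. None of the 41 passed an adjusted p of 0.05 in limma. Their smallest limma adjusted p was 0.720 (n = 3 per genotype), where 16 of 12853 genes (0.124%) and 22 of 27022 probe sets (0.0814%) were called. At an unadjusted limma p under 0.05 there were 2 members higher (Mad2l1 and Ect2) and 1 lower (Spc24), beside 3.00% and 3.89% of all tested genes. In whole embryos, fewer cells of a type and less RNA per cell cannot be told apart.

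The absence of a call came with narrow intervals. For 39 of 41 members (95.1%) the 95% interval of the difference lay wholly within 0.5 of zero on the log2 scale, which 52.1% of all tested genes reached; Kif23 and Ncapg were the 2 exceptions. The members were also brighter, with a median signal of 1085 against 156 for all tested genes. DNA replication genes, with a median signal of 763, gave like shares: 92.7% had an interval within 0.5 of zero, 63.4% a difference under 0.1 and 100% one under 0.3. The median standard error was 0.08 for the members and 0.15 over all tested genes. Embryos of 1 genotype also lay near each other, with a median standard deviation of 0.08 on the log2 scale against 0.11 for the 5701 tested genes with a mean signal over 200.

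**Figure D1:**
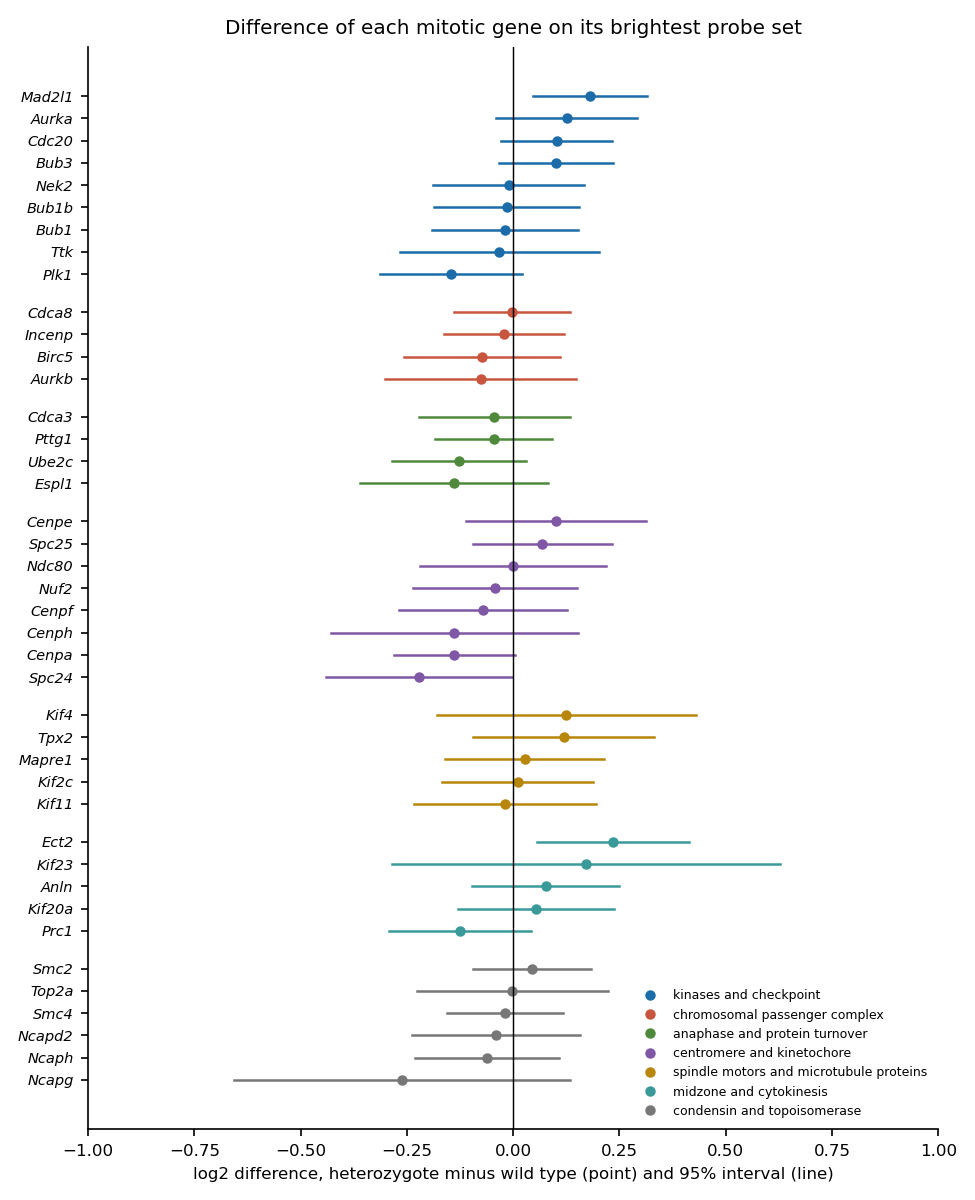
Difference of each of the 41 mitotic genes between 3 Tcof1 heterozygotes and 3 wild types, on its brightest probe set; the horizontal axis is log2 heterozygote minus wild type, lines are 95% limma intervals and colours mark the role groups. The differences lie between -0.26 and 0.24, and the widest intervals belong to Kif23 and Ncapg.

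The labels were checked on Tcof1 first, and 2 other genes set the scale of change on these arrays. Tcof1 gave 382, 393 and 387 in wild types 1, 2 and 3 and 222, 179 and 231 in heterozygotes 1, 2 and 3, which is 54.5% of wild type (limma adjusted p = 0.0352, n = 3 per genotype). Cdkn1a, the cyclin-dependent kinase inhibitor p21, read 58.6, 67.2 and 90.2 in wild types and 535, 942 and 508 in heterozygotes. It rose by 3.13 on the log2 scale (SE 0.24, limma adjusted p = 0.000874, n = 3 per genotype). Psrc1, a p53 target whose product binds spindle microtubules, read 655, 611 and 599 against 1073, 1310 and 982, a difference of 0.84 (SE 0.11, limma adjusted p = 0.0282, n = 3 per genotype). For both genes every heterozygote lay above every wild type. The Tcof1 call was lost in 10 of 17 other settings, among them each fit without 1 of the 6 embryos (limma adjusted p from 0.0586 without heterozygote 3 to 0.190 without wild type 2). The Psrc1 call was lost in 8 of 17, among them the fits without wild type 1, 2 or 3 or heterozygote 1 or 2 (limma adjusted p from 0.0661 to 0.164), and the Cdkn1a call was lost only without the intensity trend (limma adjusted p = 0.145). Among the 41 mitotic genes the largest difference was 0.26 in size.

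Tissue markers were read as summed signals in each embryo, without a test. Counts of higher or lower markers rest on each gene's mean log2 value, not on the sums. The summed signal of 5 neural markers ran from 1774 to 1992 in wild types and from 1342 to 1620 in heterozygotes, and 5 of 5 were lower in the mean. For 4 neural crest markers the sums were 548 to 710 and 356 to 435, with 4 of 4 lower. Primitive erythroid sums spanned 5788 to 13641 in wild types, with 6 of 6 markers lower in heterozygotes. They read 306, 7416 and 11211 in heterozygotes 1, 2 and 3, so that only heterozygote 1 lay below the wild types. Yolk sac endoderm sums spanned 1546 to 8366 in wild types and 686 to 13448 in heterozygotes, with 5 of 6 lower, so that both of these lists overlapped between genotypes. Heart markers summed to 3685 to 4334 in wild types and 4351 to 5349 in heterozygotes, with 3 of 4 higher. Gut endoderm sums were 1181 to 1297 and 1268 to 1567, with 2 of 3 higher, and paraxial mesoderm sums were 759 to 1290 and 673 to 887, with 1 of 4 higher. All 20 markers of neural tissue, neural crest, heart, paraxial mesoderm and gut endoderm were above the highest bacterial control, while of the trophoblast markers 0 of 2, and of the maternal decidua markers 1 of 3, were. The part of this tissue make-up in the members' small differences was not tested.

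The promoters of the mitotic genes are shown because their shared letters are the feature that the list of names did not use. The motifs searched on both strands were the cell cycle genes homology region, CHR, spelled TTTGAA or TTCGAA, and the CCAAT box, to which the factor NF-Y is known to bind. RefSeq windows of the GRCm38.p6 assembly, from 250 bases before to 50 bases after each start, were matched for 35 of the 41 members. A CHR lay in 26 of those 35 (74.3%), against 21.7% of 27025 genes with a window and 16.2% of the 10364 of them that were tested. At least 1 CCAAT lay in 27 of 35 (77.1%, against 41.1% of all). The CCAAT box was not particular to the members, since 66.7% of DNA replication genes with a window held one. Both motifs lay in the same window in 23 of 35 (65.7%, against 8.61% of all). Printed here are 150 bases around the start, in the direction of the gene, for the 4 members with the smallest p whose CHR lay from 120 bases before to 30 bases after it. Capitals mark CHR and CCAAT letters, as TTTGAA and CCAAT or, on the other strand, as TTCAAA and ATTGG. The windows are chr3:27153825-27153974 on the minus strand for Ect2, chr5:30666766-30666915 on the plus strand for Cenpa, chr2:164769809-164769958 on the plus strand for Ube2c and chr4:118437314-118437463 on the minus strand for Cdc20.
Ect2: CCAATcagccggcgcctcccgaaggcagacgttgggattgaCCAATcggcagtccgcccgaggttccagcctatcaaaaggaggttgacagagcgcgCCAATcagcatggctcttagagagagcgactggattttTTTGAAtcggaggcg
Cenpa: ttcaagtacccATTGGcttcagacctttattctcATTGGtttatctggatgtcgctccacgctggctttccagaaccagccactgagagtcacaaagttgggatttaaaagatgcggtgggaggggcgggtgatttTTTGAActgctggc
Ube2c: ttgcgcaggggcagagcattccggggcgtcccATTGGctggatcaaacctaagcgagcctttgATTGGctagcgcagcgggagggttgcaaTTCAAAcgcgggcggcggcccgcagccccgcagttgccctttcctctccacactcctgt
Cdc20: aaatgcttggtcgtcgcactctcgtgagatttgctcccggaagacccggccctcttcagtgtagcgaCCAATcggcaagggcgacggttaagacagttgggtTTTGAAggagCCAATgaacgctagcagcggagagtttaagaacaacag

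The position of the CHR was also shared. In the 26 members that held one, the nearest copy lay a median of 24 bases from the start, and 24 of 26 (92.3%, the exceptions being Kif2c and Ncapd2) lay within 50 bases. Over all 6316 windows with a CHR the median was 116 bases, and 27.6% lay within 50. Those were counted by window over tested and untested genes, whereas the members were counted by gene. No such share was made for tested genes alone. Among the members, 10 of the nearest copies were upstream of the start and 16 downstream. The 4 printed promoters belong to members on either side of zero, with Ect2 and Cdc20 higher and Cenpa and Ube2c lower in the heterozygotes. The 26 members with a CHR had a median difference of -0.01 (11 higher, 15 lower) and the 9 without one -0.04 (3 higher, 6 lower). A matched motif describes letters in the window and is not a measurement of binding.

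**Figure D2:**
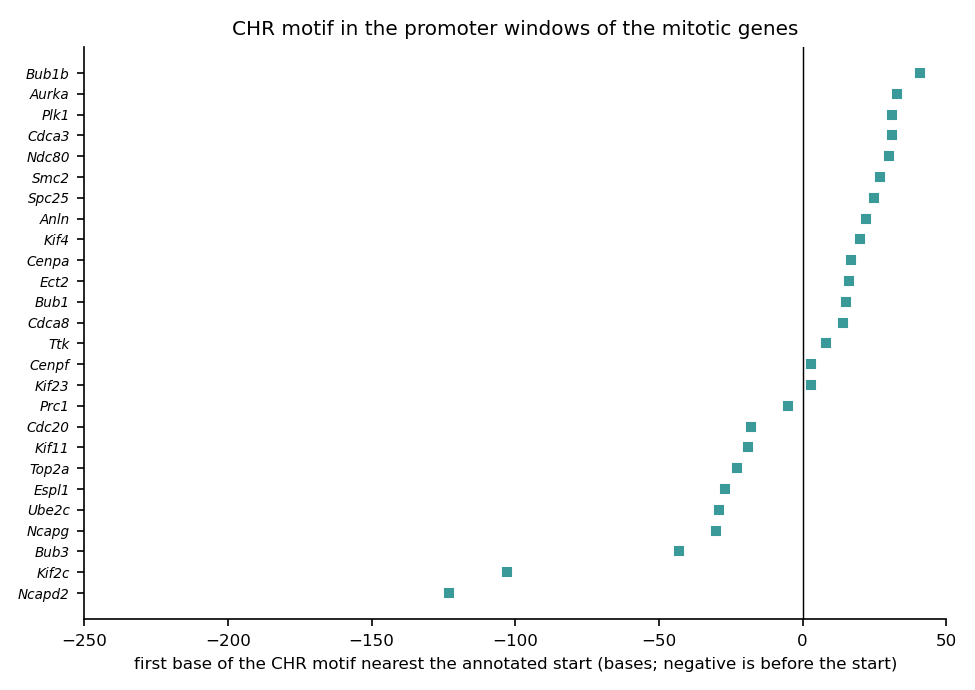
First base of the CHR motif nearest the annotated start, in bases with negative values before it, for each of the 26 members that hold one, ordered by position. In 24 of them it lies within 50 bases of the start, and Kif2c and Ncapd2 are the 2 farther upstream.

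The checkpoint and its kinases form the first group, with 9 members of which 4 were higher and 5 lower (median -0.01). Mad2l1, which encodes the Mad2 protein that holds back the anaphase-promoting complex, read 2396, 2541 and 2521 in wild types 1, 2 and 3 and 2723, 2801 and 2933 in heterozygotes 1, 2 and 3. Every heterozygote was above every wild type, by 0.18 on the log2 scale (SE 0.06, 95% interval 0.05 to 0.32, limma adjusted p = 0.720, n = 3 per genotype). Cdc20, the activator of that complex which Mad2 inhibits, gave 3888, 3786 and 3968 against 4010, 4420 and 4078, again without overlap (0.10, SE 0.06, limma adjusted p = 0.824, n = 3 per genotype). Its other 2 probe sets overlapped between genotypes, with differences of 0.04 and 0.02.

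Kinases of the same group lay on both sides. Aurka, the Aurora kinase of the spindle poles, read 997, 975 and 915 in wild types and 1008, 1096 and 1048 in heterozygotes. The groups did not overlap, although the lowest heterozygote was only just above the highest wild type (0.13, SE 0.07, limma adjusted p = 0.833, n = 3 per genotype). Plk1, the Polo kinase of mitotic entry and spindle assembly, went the other way without overlap, with 1078, 1119 and 1122 against 948, 987 and 1068. That difference was -0.15 (SE 0.07, 95% interval -0.31 to 0.02, limma adjusted p = 0.810, n = 3 per genotype).

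The remaining checkpoint genes were closer to equal on their brightest probe sets, except Bub3, which was about as far from zero as Cdc20. Bub3, whose product carries Bub1 and BubR1 to kinetochores, read 3485, 3537 and 3700 against 3651, 4052 and 3807, which overlapped (0.10, SE 0.06). A second Bub3 probe set gave 515, 467 and 495 against 532, 554 and 525, with no overlap and a difference of 0.13. Bub1, the kinase it carries, read 1525, 1442 and 1592 against 1484, 1620 and 1400, and heterozygote 2 was the highest and heterozygote 3 the lowest of the 6. Differences for Bub1, Bub1b (which encodes BubR1), Ttk (the Mps1 kinase at the top of the checkpoint) and Nek2 (a centrosome kinase) lay between -0.03 and -0.01 on their brightest probe sets, each with overlap. A second Nek2 probe set read 221, 222 and 194 against 228, 255 and 236, with no overlap and a difference of 0.17 (SE 0.11, limma adjusted p = 0.846, n = 3 per genotype).

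The 4 subunits of the chromosomal passenger complex, which corrects faulty attachments and later marks the division plane, were all slightly lower in the mean and all overlapped on their brightest probe sets. Aurkb, its kinase, read 665, 549 and 664 in wild types and 575, 630 and 570 in heterozygotes, a difference of -0.08 with an SE of 0.10. The scaffold gene Incenp gave 2774, 2973 and 2758 against 2666, 2932 and 2784 (-0.02), where replicate 2 was the highest of each genotype. Birc5, which encodes the survivin subunit, read 1496, 1287 and 1362 against 1406, 1282 and 1248 (-0.07, 95% interval -0.26 to 0.11). Cdca8, which encodes borealin, was nearly level at 2938, 2966 and 3084 against 2868, 3159 and 2949. Its 95% interval ran from -0.14 to 0.13. On a second Cdca8 probe set every heterozygote was just above every wild type, with 2823, 2856 and 2859 against 2873, 2908 and 2964 (0.03), and the remaining one was at -0.04 with overlap.

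Of the 8 centromere and kinetochore genes, 3 were higher and 5 lower, with a median of -0.06. Spc24, a subunit of the Ndc80 complex that grips microtubules, read 731, 787 and 649 in wild types and 646, 569 and 640 in heterozygotes. All 3 heterozygotes were lower, with wild type 3 close above them, and the difference was -0.22 (SE 0.10, limma adjusted p = 0.793, n = 3 per genotype). By scan day it was -0.32 over the 4 arrays of day 1 and -0.02 over the pair of day 2. Cenpa, the histone H3 variant that defines the centromere, read 1808, 1740 and 1690 against 1597, 1619 and 1541. Those groups did not overlap, with a difference of -0.14 (SE 0.06, 95% interval -0.28 to 0.004, limma adjusted p = 0.793, n = 3 per genotype).

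The partners of Spc24 did not share its difference. Ndc80, which gives the 4-subunit complex its name, read 274, 256 and 264 in wild types and 268, 257 and 268 in heterozygotes, and its mean signals of 264 were equal to 3 digits. Nuf2, which pairs with Ndc80, read 695, 724 and 812 against 694, 738 and 730 (-0.04). Spc25, which pairs with Spc24, read 1136, 1159 and 1113 against 1244, 1113 and 1222 (0.07), with 2 heterozygotes above all wild types and heterozygote 2 level with the lowest. No test between these subunits was made.

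The other kinetochore genes overlapped between genotypes on their brightest probe sets. Cenpe, a kinesin that moves chromosomes to the spindle equator, read 489, 435 and 512 against 511, 535 and 491 (0.10). On its second probe set all heterozygotes were above all wild types, with 383, 291 and 404 against 430, 441 and 408 (0.26, limma adjusted p = 0.810, n = 3 per genotype). Cenpf, a large protein of the outer kinetochore, was at -0.07, and Cenph, of the inner kinetochore, was at -0.14 with 214, 224 and 253 against 180, 229 and 220.

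**Figure D3:**
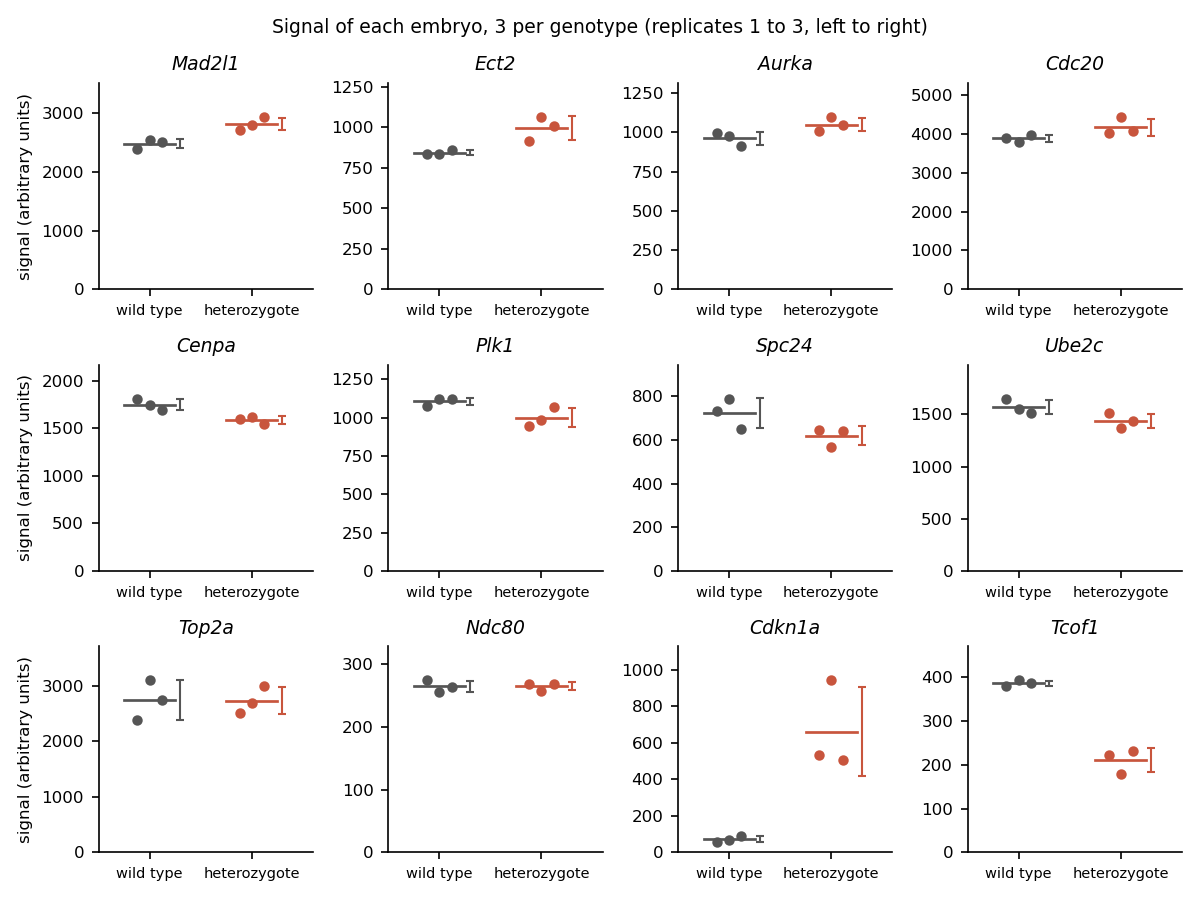
Signal in arbitrary units of every embryo (points, 3 per genotype) with the genotype mean (horizontal line) and SD (bracket), for the 8 members whose genotypes do not overlap, for Top2a and Ndc80, and for Cdkn1a and Tcof1. Mad2l1, Ect2, Aurka and Cdc20 lie higher and Cenpa, Plk1, Spc24 and Ube2c lower in all 3 heterozygotes, by far less than Cdkn1a (58.6 to 90.2 against 508 to 942).

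Among 5 spindle motor and microtubule genes, 4 were higher and 1 lower, and the median was 0.03. Kif11, the motor Eg5 that pushes the spindle poles apart, read 473, 515 and 477 in wild types and 473, 529 and 446 in heterozygotes (-0.02). Tpx2, which activates Aurora A on spindle microtubules, read 830, 837 and 977 against 1003, 866 and 1001 (0.12, SE 0.10), and a second probe set was at -0.07. Kif4, a chromosome motor, read 371, 265 and 358 against 339, 383 and 351, where wild type 2 alone stood low and the difference of 0.12 had an SE of 0.14. Kif2c, a kinesin that shortens microtubules to correct attachments, was at 0.01, and Mapre1, which encodes the microtubule plus-end protein EB1, was at 0.03.

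The midzone and cytokinesis group held the largest positive difference. Ect2, the exchange factor that turns on RhoA at the division plane, read 832, 836 and 861 in wild types and 914, 1060 and 1008 in heterozygotes. The 3 wild types were within a few per cent of each other and every heterozygote lay above them, at 118% of wild type in the mean (0.24, SE 0.08, 95% interval 0.06 to 0.41, limma adjusted p = 0.729, n = 3 per genotype). Prc1, which bundles the midzone microtubules where Ect2 is recruited, read 1246, 1141 and 1208 against 1037, 1148 and 1110 on its brightest probe set, with a difference of -0.13. Its second probe set gave the opposite sign without overlap, at 598, 624 and 559 against 647, 721 and 654 (0.18, limma adjusted p = 0.801, n = 3 per genotype).

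The other 3 genes of that group were higher in the mean and overlapped. Kif23, a subunit of the centralspindlin complex of the midzone, read 716, 1211 and 1322 against 1010, 1351 and 1200. Wild type 1 stood well below the other 5 embryos, and the 95% interval of -0.28 to 0.63 was the widest of the 41. Kif20a, a midzone kinesin, read 1100, 969 and 1128 against 1056, 1141 and 1117 (0.05). Anln, the anillin scaffold of the contractile ring, read 1023, 937 and 1074 against 1052, 1094 and 1048 (0.08).

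Condensin and topoisomerase genes were mostly level, with 1 of 6 higher, 5 lower and a median of -0.03. Top2a, the topoisomerase that untangles sister chromatids, read 2384, 3092 and 2746 in wild types and 2507, 2682 and 2999 in heterozygotes, which interleaved completely (-0.002). Smc4, an ATPase core subunit of condensin, read 2230, 2280 and 2295 against 2145, 2342 and 2232 (-0.02), and its partner Smc2 read 1991, 1971 and 2083 against 1997, 2093 and 2146 (0.04). Ncapd2 and Ncaph, regulatory subunits of condensin I, were at -0.04 and -0.06.

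Ncapg, the remaining condensin I subunit, had the most negative difference of the 41. Its brightest probe set read 731, 426 and 535 against 526, 437 and 419, with wild type 1 high and an overlap between groups (-0.26, SE 0.18, limma adjusted p = 0.850, n = 3 per genotype). Its second probe set was less scattered and did not overlap, at 517, 505 and 546 against 402, 439 and 455 (-0.27, SE 0.09, 95% interval -0.48 to -0.07, limma adjusted p = 0.720, n = 3 per genotype). Both read near 82% of wild type, with 81.8% on the first and 82.7% on the second.

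All 4 genes of anaphase and protein turnover were lower in the mean (median -0.09). Ube2c, the ubiquitin-conjugating enzyme of the anaphase-promoting complex, read 1647, 1555 and 1512 in wild types and 1509, 1373 and 1435 in heterozygotes. The groups stood apart, but heterozygote 1 was only just below wild type 3 (-0.13, SE 0.07, limma adjusted p = 0.824, n = 3 per genotype). Espl1, the separase that cuts cohesin, read 426, 483 and 463 against 447, 418 and 381 (-0.14, SE 0.10). Pttg1, the securin that restrains separase, read 3247, 3530 and 3139 against 3193, 3194 and 3203, and the 3 heterozygotes were almost equal within the wild-type range (-0.05). Cdca3, a cell cycle protein of the ubiquitin system, was at -0.04.

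In 8 of the 41 members the genotypes did not overlap on the brightest probe set. The heterozygotes were all above in 4 (Mad2l1, Ect2, Aurka and Cdc20), which is 9.76% of the members beside 5.70% of all tested genes, and all below in 4 (Spc24, Cenpa, Plk1 and Ube2c), beside 7.31% of all. With quantile normalization 5 of the 8 remained, namely Mad2l1, Ect2, Aurka, Cenpa and Plk1. No share over all tested genes is given for that scaling. Taken by scan day, 20 of 41 members were higher in heterozygotes on day 1 and 16 of 41 on day 2, with the same sign on both days in 21 of 41.

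Probe sets of 1 gene did not always give the same difference, and the dim ones disagreed most. Of 99 probe sets, 91 were tested and 0 called in limma, with 43 higher, 48 lower and 5 at an unadjusted limma p under 0.05. Over all tested probe sets, 1681 of 27022 were under 0.05. The 63 with a mean signal over 200 ranged from -0.45 to 0.26 in their differences, and the 28 dimmer ones from -1.01 to 0.73. The widest disagreement was at Mapre1. A dim probe set of that gene read 60.5, 61.9 and 62.2 in wild types and 27.9, 30.6 and 30.6 in heterozygotes, which are tight groups far apart (-1.01, SE 0.19, limma adjusted p = 0.211, n = 3 per genotype). Its 4 other probe sets did not share this, at 0.03, 0.03, 0.08 and 0.39, and the brightest read 2339, 2727 and 2449 against 2436, 2823 and 2403.

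Smc2, Cdca3 and Ttk also differed between probe sets, with more scatter, and at Smc2 not only on dim ones. Smc2 had a dim probe set at 50.8, 28.8 and 20.3 against 18.9, 40 and 5.74 (-0.81, SE 0.58) and another at 429, 265 and 354 against 255, 335 and 182 (-0.45, SE 0.23), while its brightest was at 0.04. Cdca3 had 24.3, 29.4 and 12.4 against 14.3, 8.16 and 9.03 on a dim probe set (-0.91, SE 0.43). Ttk had 20.3, 6.76 and 31.5 against 35.0, 19.4 and 35.5 (0.73, SE 0.49), where the same gene's brightest probe set was at -0.03. Embryos of both genotypes overlapped on each of these dim probe sets, and the sequence each probe set reads was not analysed here.

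**Figure D4:**
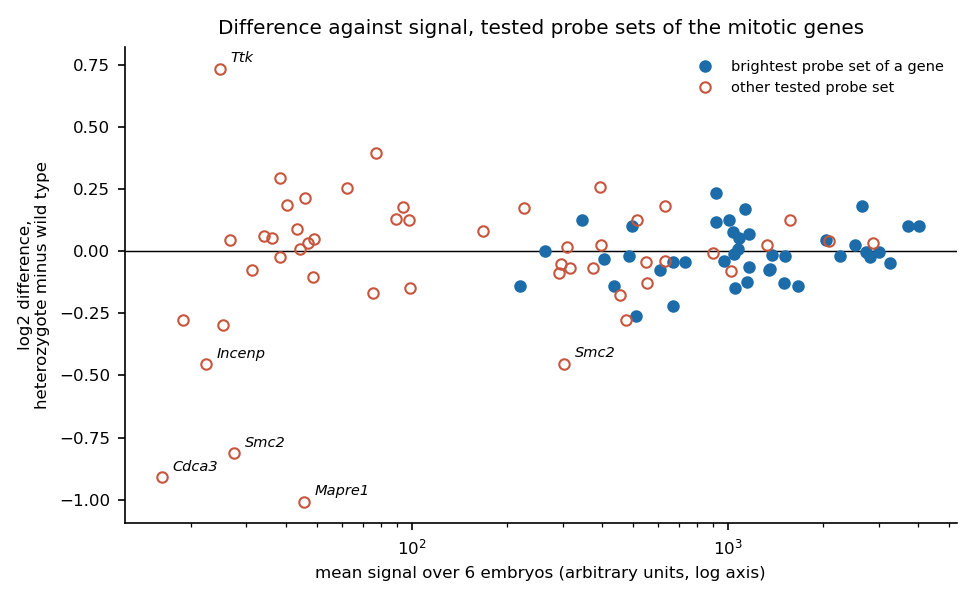
Genotype difference in log2 units of the 91 tested probe sets of the 41 genes against their mean signal (log axis); filled points are the brightest probe set of each gene and open points the others. Above a signal of 200 the differences lie between -0.45 and 0.26, and the 4 farthest dim probe sets belong to Mapre1, Cdca3, Smc2 and Ttk.

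Over all the mitotic genes, single embryos differed little. The members' median deviation from each gene's mean over the 6 embryos was -0.01, -0.01 and 0.02 in wild types 1, 2 and 3 and -0.04, 0.04 and -0.01 in heterozygotes 1, 2 and 3. Heterozygote 2 held the highest value for 16 of 41 members (39.0%), against 15.8% of all tested genes. Its share was 20.3% in the other mitotic genes and 24.4% in the DNA replication genes. Heterozygote 1 held the highest value for 3 of 41 (7.32%), against 16.4% of all tested genes. By role, on the deposited scaling only, the median deviation of heterozygote 2 was largest in the spindle motor group (0.13) and in the kinases and checkpoint (0.09). It was 0.08 in the midzone and 0.06 in the passenger complex, 0.005 in condensin and topoisomerase, -0.01 in the kinetochore group and -0.04 in the anaphase group. With quantile normalization the order changed: wild type 3 was the highest embryo (0.03), heterozygote 2 was at 0.0088 and heterozygote 1 was still the lowest (-0.03). Heterozygote 2 also had the highest Cdkn1a and the lowest Tcof1 signal of the 6 embryos; the part of this in its members' values was not tested. The excess of 3' over 5' Gapdh signal, a sign of RNA quality, separated the genotypes, at 0.85, 1.04 and 0.84 on the log2 scale in wild types 1, 2 and 3 and 0.81, 0.68 and 0.81 in heterozygotes 1, 2 and 3. Its part in the members' differences was not tested.

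**Figure D5:**
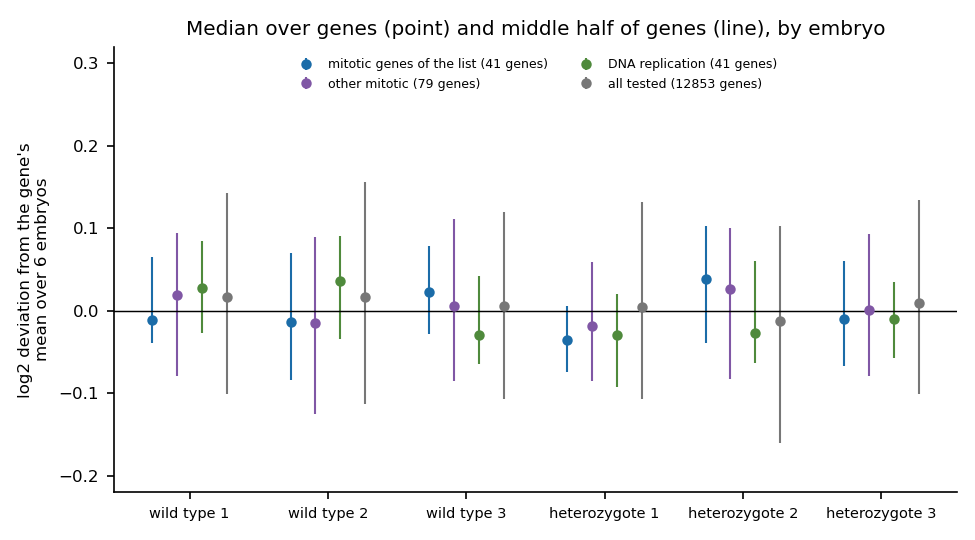
Deviation from the gene's mean over the 6 embryos, in log2 units, for the 41 members, 79 other mitotic genes, 41 DNA replication genes and all 12853 tested genes; points are medians over genes and lines span the middle 50% of genes. For the members, on the deposited scaling, heterozygote 1 is lowest (-0.04) and heterozygote 2 highest (0.04); with quantile normalization wild type 3 is highest (0.03).

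The rest of the mitotic programme was measured from a second list of 88 symbols, of which 79 were tested. Of these, 39 were higher and 40 lower with a median of -0.003. The genotypes did not overlap in 6 with the heterozygotes above (7.59%, against 5.70% of all tested genes) and in 7 with them below (8.86%, against 7.31%). Limma called 0, with 4 higher and 2 lower at an unadjusted p under 0.05, beside 3.00% and 3.89% of all tested genes. The 3 with the smallest p above zero were Ckap2, a spindle pole protein gene (369, 392 and 392 against 457, 477 and 492, 0.31), Zwilch, of the kinetochore complex that recruits dynein (507, 417 and 513 against 526, 659 and 699, 0.39), and Clasp2, which stabilises microtubule ends (277, 232 and 266 against 293, 349 and 355, 0.36). Each was higher in all 3 heterozygotes than in any wild type, with limma adjusted p values of 0.653, 0.720 and 0.720 (n = 3 per genotype). The 3 below zero were Sgo2a, a shugoshin that protects centromeric cohesin (-0.33), Cdc25b, a phosphatase that activates Cdk1 (-0.32), and Ccnb2, a B-type cyclin (-0.21). Sgo2a and Cdc25b did not overlap and Ccnb2 did, with limma adjusted p values of 0.719, 0.793 and 0.793 (n = 3 per genotype). In the promoters of this second list a CHR was found in 34 of 66 (51.5%) and a CCAAT in 37 of 66 (56.1%).

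DNA replication genes, which act in S phase before these, were listed for contrast. Of 41 tested, 14 were higher and 27 lower with a median of -0.03, and limma called 0. At an unadjusted limma p under 0.05, 5 of 41 were lower (3.89% of all tested genes were) and 0 higher. The genotypes did not overlap in 7 of 41 with the heterozygotes below (17.1%, against 7.31% of all) and in 1 with them above, and the differences ran from -0.29 to 0.28. A CHR lay in 6 of 33 of their promoter windows (18.2%), and a CCAAT in 22 of 33 (66.7%).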

How the data were processed

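The deposited values are Affymetrix intensity signals, 1 per probe set and array, that the authors made with GCOS (the submitters' processing notes give neither version nor settings). Per the labels' protocols, 100 ng of total RNA per embryo went through 2 rounds of amplification, and 20 µg of cRNA was hybridised. The trimmed mean without the top and bottom 2% of values averaged 150 over the 6 arrays, and the deposited scaling was kept. The log2 of signal plus 1.87 (the 10th percentile) was taken, the lowest 40% of 45037 probe sets by mean log2 value (signal below 13.2) were left out along with 64 controls, and limma 3.58.1 in R 4.3.3 compared 3 heterozygotes with 3 wild types over 27022 probe sets, using an intensity trend and Benjamini-Hochberg adjustment, with 0.05 as the threshold. Array numbers limit the precision; correlations between arrays were 0.952 to 0.959. The fit was tested on simulated data with no change or with changes far larger than the members' differences. That test does not show how often differences of the members' size would be called.

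Symbols came from the platform annotation (34945 probe sets with 1, 932 with several, 9160 with none), and the probe set with the highest mean signal stood for a gene. Probe sets ending in _x_at (5 of the brightest: Aurkb, Cdc20, Incenp, Kif2c and Ncaph) or _s_at (6) can read more than 1 transcript. Named in full are the 5 members with the smallest p in each direction, the 4 whose probe sets differ most, and examples of each role; other lists give the 3 smallest p in each direction. The members and lists were chosen with earlier results of these data known.

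Replicates 1 and 2 of both genotypes were scanned on 1 day and replicate 3 on another. The fluidics modules held 1 genotype each, so module and genotype cannot be told apart. Alternatives changed the pseudocount, scaling, filter, trend, array weights, blocks, scan day, probe set rule and the arrays included.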

Additional observations from a re-analysis of the deposited data

How the results depend on the processing

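No member was called under any of 17 other settings or with the mean of a gene's probe sets. Under the 17 settings the members' smallest limma adjusted p lay between 0.574 and 0.926. The members' median difference ranged from -0.05 to 0.01, and 15 to 21 of 41 were higher. Under the 17 settings none of the 10 members named with the smallest p changed sign. With the mean of a gene's probe sets, differences of single members are not given here. The 2 tested probe sets of Prc1, 1 of the 10, differed in sign (-0.13 and 0.18). Their mean lies above zero, so the sign of Prc1 does depend on the probe set rule. Over all probe sets, limma called 22. It called 10 with the replicate number as a block (replicate block). Embryos of equal number did not deviate together, with correlations of -0.079, -0.105 and -0.024, which cannot show whether the numbers mark pairs. Limma called 14 with scan day as a block, and 12 on the first scan day alone. Without the intensity trend it called 0, with a smallest adjusted p of 0.0555 and 1571 at an unadjusted p under 0.05. Leaving out 1 embryo at a time gave 8 (without wild type 1) to 20 (without heterozygote 3), with 11 without wild type 2 or wild type 3 and 12 without heterozygote 2. Fewer arrays enter those fits; otherwise the cause was not tested. With quantile normalization the genotypes did not overlap in 5 members (without a share over all tested genes), and the median deviation of heterozygote 2 was 0.0088, below wild type 3 (0.03). The second scan day alone holds 1 embryo per genotype and gave values without a test. With 3 embryos per genotype, the 95% intervals of the members had a median width of 0.18 to either side. Differences smaller than a gene's interval could not be told from zero. The intervals are not adjusted for the number of probe sets, so a larger difference could also go uncalled. Ect2 did so at 0.24 (limma adjusted p = 0.729, n = 3 per genotype).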
